A study of Rattus norvegicus with 4 samples.

Results

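The genes of triglyceride assembly and of the milk fat globule coat were followed through 4 arrays of rat mammary gland. They were named as Btn1a1, Xdh, Plin2, Mfge8, Muc1, Gpam, Lpin1, Dgat1, Dgat2 and G0s2, and every probe set that the platform annotation gives 1 of these symbols and no other was taken, whatever its signal. This gave 13 probe sets for 9 of the 10 genes, out of 31099 probe sets and 14217 named genes. No probe set carried the symbol Btn1a1, so butyrophilin, the transmembrane protein of the globule coat, was not analysed here.

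RNA came from the mammary gland of homozygous HHR (the Hirosaki hairless rat, a mutant strain) on day 1 of lactation, from heterozygous HHR on day 1 of lactation, from Sprague-Dawley rats (SDR) on involution day 1, when the gland regresses, and from SDR on day 1 of lactation. The labels give neither the number of animals behind an array, nor their age, nor the parent strain of the heterozygous animals, nor how long the rats had lactated before involution, so the end of milk removal and the stage of lactation cannot be told apart. There was 1 array in each group. Every difference below is therefore described by its size alone, without a test or an error from replicates, on the scale of the deposited signal, a linear hybridisation intensity per probe set.

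Milk fat is made by the secretory epithelium of the lactating gland. Fatty acids are joined to glycerol in the endoplasmic reticulum in a chain of acylations, a phosphatase step frees diacylglycerol, and a last acylation gives triglyceride, which collects in droplets that move to the apical membrane and bud off wrapped in it. Xanthine oxidoreductase (Xdh), the droplet protein perilipin 2 (Plin2, adipophilin) and butyrophilin are thought to join droplet and membrane during budding, while lactadherin (Mfge8) and mucin 1 (Muc1) lie on the outer face of the globule. G0s2 is no part of the coat and no enzyme of the chain: it inhibits adipose triglyceride lipase (Pnpla2), which breaks stored triglyceride down.

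The largest differences were seen in involution and concerned G0s2 and Muc1, while the brightest probe sets of Xdh, Plin2 and Mfge8 were at most 1.55-fold lower. G0s2 was 28.3-fold lower and Muc1 6.51-fold lower in SDR involution than in SDR lactation. On the deposited scale Xdh, Plin2 and Mfge8 were 1.29-fold, 1.55-fold and 1.36-fold lower, and Xdh and Mfge8 changed sign when the arrays were scaled to spiked-in controls. In the hairless rats, Gpam, which encodes the mitochondrial first acyltransferase, was lower than in SDR lactation, at signals close to the floor. Its endoplasmic reticulum counterpart, Gpat4, lay within 1.05-fold of SDR in both HHR arrays by its brightest probe set. Lpin1 was higher (1.52-fold in homozygous and 1.49-fold in heterozygous HHR) and Dgat1 was lower (1.48-fold in homozygous and 1.52-fold in heterozygous HHR). Differences as large as those of Lpin1 and Dgat1 were found in 21.1% to 27.2% of measured genes. G0s2 separated the HHR arrays, being 2.69-fold lower in homozygous than in heterozygous HHR.

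RefSeq promoter sequences (build GRCr8) were matched by symbol for 8 of the 10 genes. They are shown for the 3 genes that passed 2-fold in any comparison, G0s2, Muc1 and Gpam, as the 250 bases before the annotated gene start on the coding strand. G0s2 lies on the minus strand with its window at chr13:107335949-107336198, Muc1 on the plus strand at chr2:176933500-176933749 and Gpam on the minus strand at chr1:264175912-264176161. Capitals mark matches, on either strand, to 1 of 6 motifs.
G0s2: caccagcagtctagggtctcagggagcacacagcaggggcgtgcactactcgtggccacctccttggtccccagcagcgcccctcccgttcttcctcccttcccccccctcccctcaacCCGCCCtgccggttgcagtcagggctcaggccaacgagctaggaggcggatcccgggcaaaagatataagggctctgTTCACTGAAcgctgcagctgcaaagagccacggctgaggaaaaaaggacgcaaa
Muc1: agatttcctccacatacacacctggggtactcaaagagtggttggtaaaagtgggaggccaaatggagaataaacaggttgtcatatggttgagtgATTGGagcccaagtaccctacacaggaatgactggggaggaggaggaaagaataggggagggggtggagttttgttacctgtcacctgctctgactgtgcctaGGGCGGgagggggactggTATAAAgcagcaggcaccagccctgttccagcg
Gpam: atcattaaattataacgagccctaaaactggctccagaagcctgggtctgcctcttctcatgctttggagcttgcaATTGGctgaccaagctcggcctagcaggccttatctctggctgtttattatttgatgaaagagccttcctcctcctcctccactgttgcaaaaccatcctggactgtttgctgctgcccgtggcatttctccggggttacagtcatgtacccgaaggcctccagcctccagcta
The motifs were the TATA box TATAAA, the GC box GGGCGG, the CCAAT box CCAAT, the Stat site TTCNNNGAA, the AP-1 site TGACTCA and the cyclic AMP element TGACGTCA, and no matches overlapped in these windows. The G0s2 window held a Stat match, TTCACTGAA, from 54 to 46 bases before the start, and a GC box. Such a Stat match was found in 7.67% of all 33469 promoter windows and in 1 of the 9 windows of these genes, which include a pair for Plin2. The Muc1 window held a TATA box from 33 to 28 bases before the start, present in 12.9% of all windows and in 1 of the 9, besides a GC box and a CCAAT box. The Gpam window held only a CCAAT box, a match found in 34.0% of all windows. A match is a run of letters and not a shown binding site.

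Values under 91.5, the 40th percentile of all signals, were raised to that floor before the log2 was taken, and a gene with several probe sets was represented by its brightest. The number of genes above the floor was between 10368 and 10472 in each array. The spiked-in hybridisation controls (bioB, bioC, bioD and cre) are added in equal amounts by standard protocols. Their mean log2 difference from SDR lactation was -0.16 in homozygous HHR, -0.02 in heterozygous HHR and -0.54 in SDR involution. Single controls lay between -0.86 and -0.39 in SDR involution. The 3′ to 5′ signal ratio of the Gapdh controls, which grows with RNA degradation, was 2.30 in homozygous HHR, 1.93 in heterozygous HHR, 1.60 in SDR involution and 1.17 in SDR lactation. That of the actin controls was 5.91, 7.87, 4.797 and 4.60 in the same order, so that both ratios were lowest in SDR lactation and differed in which HHR array was highest. The part of RNA quality in the results below was not tested. In whole tissue, fewer cells of a type and less RNA per cell cannot be told apart.

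**Figure D1:**
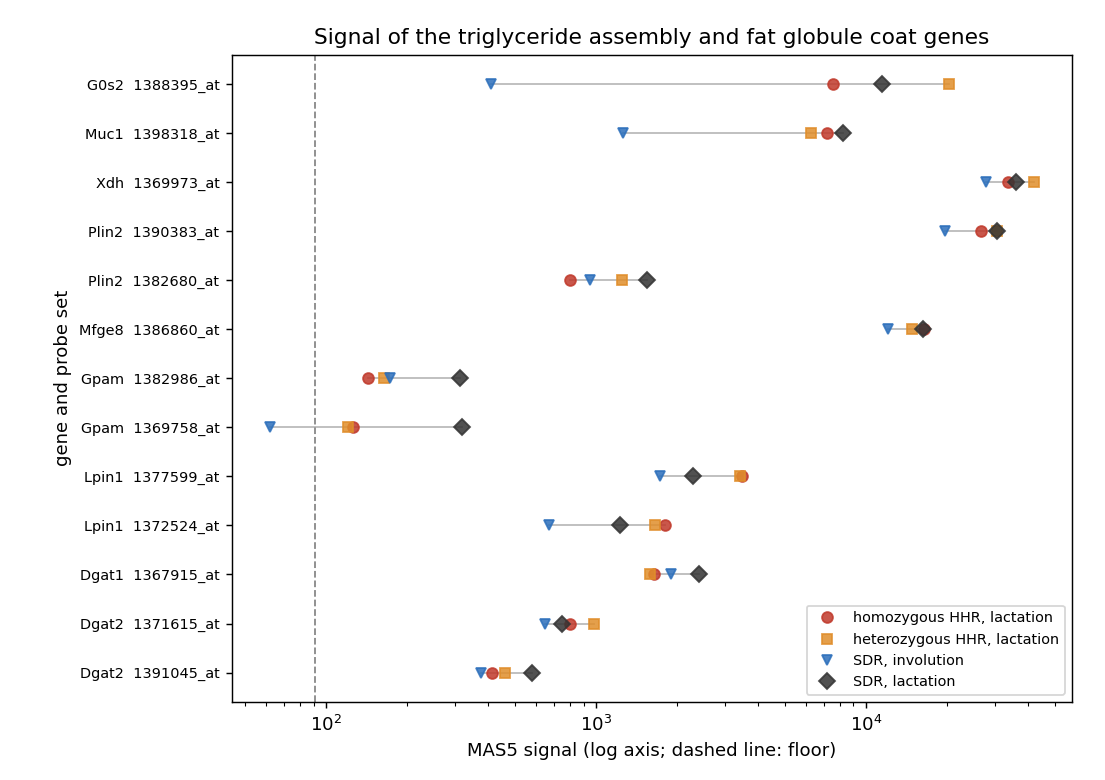
Deposited MAS5 signal on a log axis for each of the 13 probe sets of 9 genes, with 1 point per array and the floor of 91.5 as a dashed line. The involution array is the lowest of the 4 in 10 probe sets, and the gap is widest for G0s2 (407.3 in SDR involution, 11510.5 in SDR lactation) and Muc1. With arrays scaled to spiked-in controls, the brightest probe sets of Xdh, Mfge8, Lpin1, Dgat1 and Dgat2 were higher in involution than in SDR lactation.

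Among the genes of the globule coat, Xdh, which encodes the redox enzyme that anchors the coat, had a signal of 33702 in homozygous HHR, 41853 in heterozygous HHR, 27905 in SDR involution and 35936 in SDR lactation. The values lay close together, with heterozygous HHR highest and SDR involution lowest. The log2 difference from SDR lactation was -0.09 in homozygous HHR, 0.22 in heterozygous HHR and -0.36 in SDR involution, and the first and the last changed sign under another scaling of the arrays. This probe set ranked between 16 and 32 from the top of its array in brightness, where the brightest probe sets reached 47462 to 65647, and signals near the upper end can understate a difference.

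Plin2, which coats cytoplasmic lipid droplets, was read by a bright and a dim probe set. The bright one had 26596 in homozygous HHR, 30701 in heterozygous HHR, 19720.4 in SDR involution and 30596 in SDR lactation. The dim one had 798.9, 1253, 950.8 and 1545 in the same order of groups. Both were lower in SDR involution than in SDR lactation, by -0.63 and -0.70 on the log2 scale. They parted in homozygous HHR against SDR lactation, with -0.20 for the bright and -0.95 for the dim probe set, so the size of that difference is not settled.

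Mfge8 encodes lactadherin, which binds phosphatidylserine and also bridges dying cells to phagocytes. Its signal was 16451 in homozygous HHR, 14831 in heterozygous HHR, 12030.4 in SDR involution and 16332.5 in SDR lactation. The 3 lactation arrays lay within 1.11-fold of each other and SDR involution was lowest, at a log2 difference of -0.44 from SDR lactation that became 0.10 with the arrays scaled to spiked-in controls.

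Muc1, a heavily glycosylated membrane mucin of the apical surface, behaved differently from Xdh, Plin2 and Mfge8 in involution. It had 7185 in homozygous HHR, 6249 in heterozygous HHR, 1261 in SDR involution and 8210.0 in SDR lactation. The involution value was apart from all 3 lactation values, which lay within 1.31-fold of each other. The log2 difference of involution from lactation in SDR was -2.70, and 83 of 11014 measured genes, Muc1 included, were as low or lower. Muc1 was read by a single probe set, so these values have no second reading on the array.

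Of the genes of triglyceride assembly, Gpam encodes the mitochondrial enzyme that adds the first fatty acid to glycerol 3-phosphate. Its brighter probe set had 142.6 in homozygous HHR, 163.6 in heterozygous HHR, 172.5 in SDR involution and 313.5 in SDR lactation. The other probe set had 126.5, 120.6, 62.2 and 318.0 in the same order of groups, the involution value lying under the floor. SDR lactation was highest in both probe sets, and the remaining 3 arrays lay within 1.21-fold of each other in the brighter one. Against SDR lactation the log2 differences of the 2 probe sets were -1.14 and -1.33 in homozygous HHR and -0.94 and -1.40 in heterozygous HHR. In SDR involution the brighter probe set was 1.82-fold lower and the other at least 3.48-fold lower. These signals lie close to the floor, so the size of the difference depends on how low signals are treated.

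Lpin1 encodes a phosphatidate phosphatase, which makes the diacylglycerol used for triglyceride. Its brighter probe set had 3479 in homozygous HHR, 3423 in heterozygous HHR, 1735.0 in SDR involution and 2291 in SDR lactation. The other probe set had 1802, 1653.0, 673.2 and 1225 in that order. Both placed the 4 arrays in the same order, with the HHR arrays highest and involution lowest. Log2 differences from SDR lactation were 0.60 and 0.56 in homozygous HHR and 0.58 and 0.43 in heterozygous HHR. In SDR involution they were -0.40 and -0.86, and that of the brighter probe set was 0.14 with the arrays scaled to spiked-in controls. Differences at least as large as that of the brighter probe set were found in 21.1% of measured genes for homozygous HHR and in 27.2% for heterozygous HHR.

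Dgat1 and Dgat2 encode unrelated enzymes for the same last acylation. Dgat1 had 1637 in homozygous HHR, 1589.5 in heterozygous HHR, 1899.5 in SDR involution and 2416 in SDR lactation. SDR lactation was highest, and the HHR arrays were lower than involution, with log2 differences from SDR lactation of -0.56 in homozygous HHR, -0.60 in heterozygous HHR and -0.35 in SDR involution, the last turning to 0.19 with the arrays scaled to spiked-in controls. Differences at least as large were found in 23.7% of measured genes for homozygous HHR and in 25.3% for heterozygous HHR. Dgat1 was read by a single probe set. The brighter probe set of Dgat2 had 799.8 in homozygous HHR, 986.5 in heterozygous HHR, 648.7 in SDR involution and 747.2 in SDR lactation. Its other probe set had 411.1, 461.9, 376.1 and 580.5 in that order. The Dgat2 probe sets went opposite ways in HHR against SDR lactation (0.10 and -0.50 in homozygous, 0.40 and -0.33 in heterozygous), so Dgat2 has no settled direction there. In involution they were at -0.20 and -0.63, and the brighter one turned to 0.34 with the arrays scaled to spiked-in controls.

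G0s2, the lipase inhibitor, varied most of all. Its signal was 7546 in homozygous HHR, 20287 in heterozygous HHR, 407.3 in SDR involution and 11510.5 in SDR lactation. The involution value lay far under the 3 lactation values, and the highest array exceeded the lowest 49.8 times. The log2 difference of involution from lactation was -4.82, and 11 of 11014 measured genes, G0s2 included, were as low or lower. During lactation the HHR arrays lay on either side of SDR, at -0.61 in homozygous and 0.82 in heterozygous HHR. Between homozygous and heterozygous HHR the difference was -1.43, with 80 of 10877 measured genes as low or lower. Only 1 probe set reads G0s2, so these values have no second reading on the array.

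**Figure D2:**
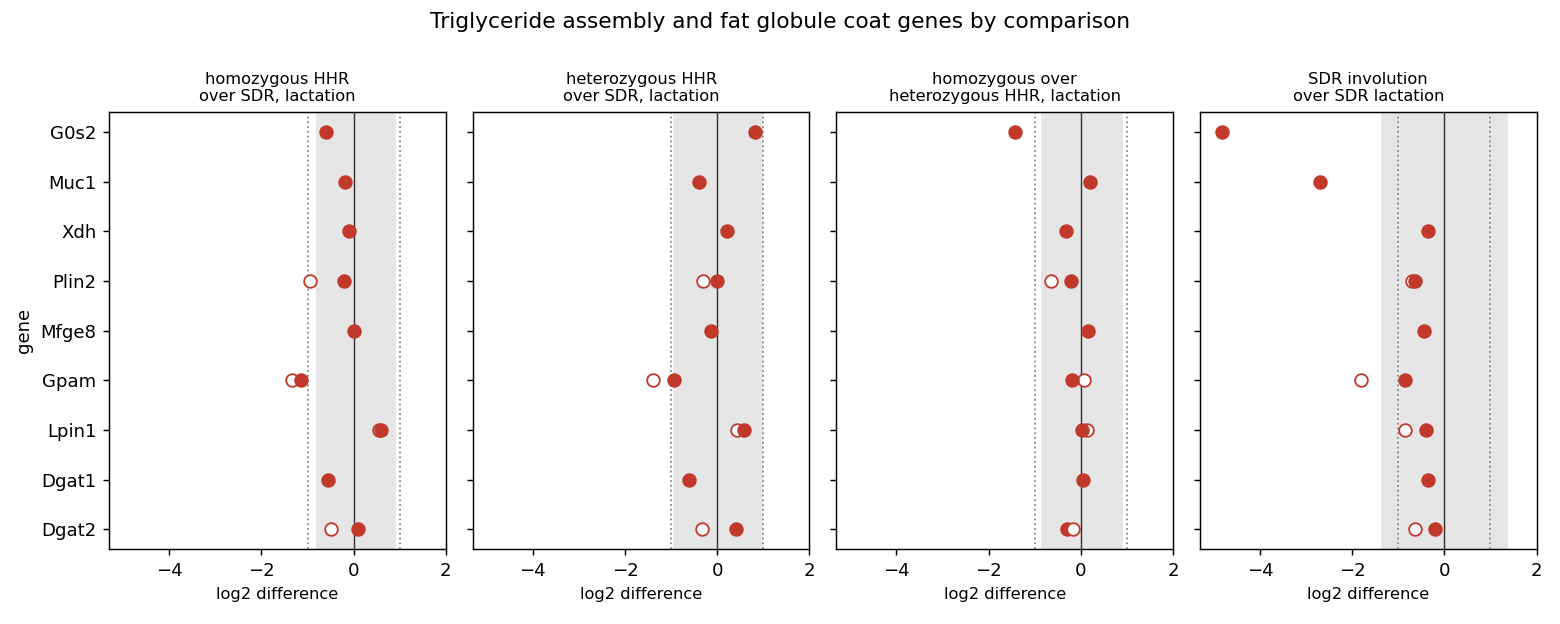
Log2 difference of signal for 9 genes in 4 comparisons, with filled points for the brightest probe set of a gene and open points for a further one, grey bands for the 5th to the 95th percentile of all measured genes and dotted lines at 2-fold. Of the filled points, G0s2 (-4.82) and Muc1 (-2.70) lie outside the band in involution, Gpam (-1.14) in homozygous HHR and G0s2 (-1.43) between the HHR arrays.

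Counted by gene, 1 of the 9 measured genes (Gpam) was at least 2-fold lower in homozygous HHR than in SDR lactation and 0 were higher, against 2.72% lower and 3.77% higher among all measured genes (6.5% in either direction). In heterozygous HHR 0 were lower and 0 higher, against 4.15% and 4.58% of all genes (8.73% in either direction), with Gpam at 1.92-fold lower. Between homozygous and heterozygous HHR 1 (G0s2) was lower and 0 higher, against 3.14% and 3.76% (6.9% in either direction). In SDR involution against SDR lactation 2 (G0s2 and Muc1) were lower and 0 higher, against 8.94% and 10.3% (19.2% in either direction). The median log2 difference over the 9 genes was -0.19, 0.00, -0.20 and -0.44 in these comparisons, beside 0.02, 0.01, 0.00 and 0.08 over all genes. With 9 genes, these counts are small numbers, and the comparisons with SDR lactation share that array.

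The log2 differences of a gene's brightest 2 probe sets, where both were above the floor in both arrays, differed by a median of 0.43 in homozygous HHR against SDR lactation (2480 genes), 0.45 in heterozygous HHR, 0.27 between the HHR arrays and 0.52 in involution. The differences of Xdh and Mfge8 were smaller than this gap in the 2 comparisons of HHR with SDR and in involution. Those of G0s2 and Muc1 in involution, of Gpam in HHR and of G0s2 between the HHR arrays were larger than the median gap. The upper decile of the gap began at 1.17 in homozygous and 1.14 in heterozygous HHR against SDR lactation. Gpam, at -1.14 and -0.94, was smaller in size than these values, as were Lpin1 (0.60 and 0.58) and Dgat1 (-0.56 and -0.60). The upper decile began at 1.27 in involution, where G0s2 and Muc1 exceeded it, and at 0.74 between the HHR arrays, where G0s2 did. This gap is a disagreement between probes on the same arrays and does not replace the spread between animals.

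The scaling of the arrays decides the direction of the smaller differences in involution. Scaling to the spiked-in controls was a setting chosen after the data were seen. With it the brightest probe sets of Xdh, Mfge8, Lpin1, Dgat1 and Dgat2 turned to 0.18, 0.10, 0.14, 0.19 and 0.34 above SDR lactation. Those of Plin2 and Gpam were at -0.09 and -0.32. The other probe sets of Lpin1 and Dgat2, at -0.86 and -0.63 as deposited, were further below SDR lactation than the controls (-0.54). The median of all genes moved to 0.58 in the same setting. Relative to that median, all 9 genes were lower in involution under both scalings, from -0.28 (Dgat2) to -4.90 (G0s2) as deposited and from -0.24 to -4.86 with the controls. G0s2 at -4.28 and Muc1 at -2.16 stayed past 2-fold. In the same setting 87.6% of genes past 2-fold in involution were higher (3111 against 442), compared with 53.4% as deposited (1129 against 985).

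**Figure D3:**
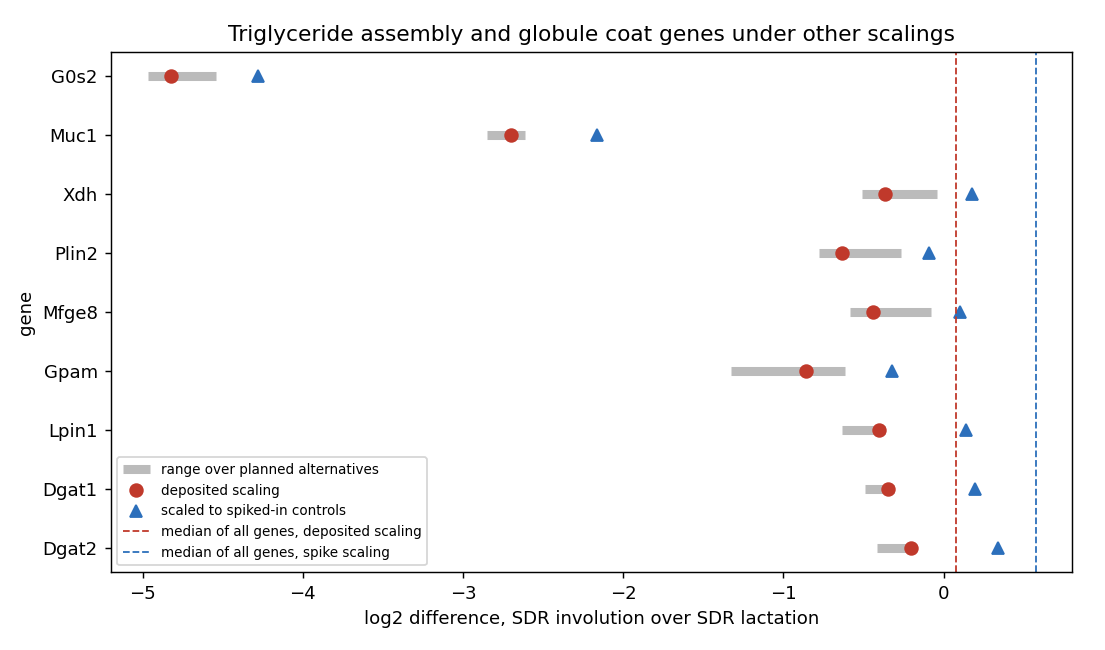
Log2 difference of SDR involution over SDR lactation for 9 genes as deposited, over the alternatives for scaling, floor and probe set other than the controls and scaled to the spiked-in controls, with the median of all genes under either scaling. G0s2 and Muc1 stay below -2 in all settings shown, while the brightest probe sets of Xdh, Mfge8, Lpin1, Dgat1 and Dgat2 change sign with the controls.

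Further enzymes of triglyceride synthesis moved in both directions in involution. Of 15 measured genes 4 were at least 2-fold lower in SDR involution than in SDR lactation and 4 were higher, against 8.94% lower and 10.3% higher among all measured genes, and the median log2 difference was -0.38. Acsl1, which activates long-chain fatty acids, was 7.01-fold lower, Agpat1, which adds the second fatty acid, was 6.37-fold lower and Gpd1, which makes glycerol 3-phosphate, was 4.36-fold lower. Gpat4, the endoplasmic reticulum counterpart of Gpam, had 11476 in homozygous HHR, 11458 in heterozygous HHR, 3728 in SDR involution and 12019 in SDR lactation, so that it was 3.22-fold lower in involution and within 1.05-fold of SDR in both HHR arrays. Lpin2, a relative of Lpin1, was 3.24-fold higher in involution and had the opposite sign there to Lpin1 as deposited. Gpat4, Lpin2 and, below, Muc4 in involution fall outside the naming rule and were chosen after their values were seen. Of the same enzymes, 2 were at least 2-fold higher and 0 lower in homozygous HHR against SDR lactation (3.77% and 2.72% of all genes), Lpin2 at 2.89-fold and Acsl3 at 2.17-fold. In heterozygous HHR 1 was higher (Lpin2, 2.69-fold) and 2 lower (Agpat4, 2.16-fold, and Gpd1, just past 2-fold), against 4.58% and 4.15% of all genes. None of these 5 differences stayed past 2-fold in every alternative. With the mean of all probe sets Lpin2 was at 0.62 in homozygous and 0.57 in heterozygous HHR on the log2 scale, Acsl3 fell below 2-fold with the pseudocount (0.86), Agpat4 with the higher floor (-0.27) and Gpd1 with quantile normalization (-0.90). In homozygous HHR Gpd1 was at -0.81 by its brightest probe set and at -1.87 with the mean of all probe sets. With that mean, Gpd1 counted as lower there and Lpin2 no longer as higher.

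Genes of the droplet coat and of lipolysis had a median of -0.43 in involution, where 2 of 12 measured members were at least 2-fold lower and 0 higher, beside 8.94% and 10.3% of all genes. Cidea, a droplet protein needed for milk fat secretion in mice, was 10.4-fold lower (3158 in SDR involution, 32754 in SDR lactation). Pnpla2, the lipase that G0s2 inhibits, was 2.31-fold lower (a log2 difference of -0.67 with the arrays scaled to spiked-in controls), with 3008 in homozygous HHR, 2083 in heterozygous HHR, 1445 in SDR involution and 3344 in SDR lactation. Its coactivator Abhd5 had 14245, 6423, 7784 and 10781 in the same order of groups and was 2.22-fold higher in homozygous than in heterozygous HHR, the opposite sign to G0s2. No member passed 2-fold in homozygous HHR against SDR lactation (6.5% of all genes in either direction). Plin1 (2.05-fold) and Cidec (2.01-fold), droplet proteins of fat cells, were higher in heterozygous HHR (4.58% of all genes). Both lay at the threshold, Cidec dropping under 2-fold with 3 alternatives and Plin1 with 2.

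Other genes of the globule membrane had a median of -1.77 in involution, where 6 of 9 were at least 2-fold lower and 1 was higher, against 8.94% and 10.3% of all genes. With the arrays scaled to spiked-in controls, Folr1 fell under 2-fold (-0.86) and Anxa5 passed 2-fold higher (1.12). Both are named in involution for this change alone. Fabp3, a carrier of fatty acids in the cytosol, had 940.6 in SDR involution and 57721 in SDR lactation, a 61.4-fold lower signal in involution. Slc34a2, a phosphate cotransporter, was 48.7-fold lower and Cd36, a fatty acid translocase, 23.0-fold lower, whereas Pigr, the immunoglobulin receptor, had 18153 in SDR involution and 17667 in SDR lactation. Muc4, another membrane mucin, was 2.74-fold higher in involution (1647 against 600.8), the opposite sign to Muc1.

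In homozygous HHR against SDR lactation 3 of the 9 were lower and 1 higher, beside 2.72% and 3.77% of all genes. Cd36 was 4.36-fold lower and Folr1, a folate receptor, 2.90-fold lower, while Muc4 was 3.63-fold higher. The third lower gene was Abcg2, a transporter that in mice carries riboflavin into milk, which lay at the threshold and dropped under 2-fold with quantile normalization, where Pigr passed it (1.02), so that the counts became 2 lower and 2 higher. In heterozygous HHR 3 were lower and 0 higher, against 4.15% and 4.58% of all genes, namely Folr1 at 3.27-fold, Cd36 at 2.23-fold and Rab18, a droplet-bound GTPase, at 2.08-fold, the last under 2-fold with quantile normalization (-0.99). Between the HHR arrays 1 of the 9 was at least 2-fold lower and 0 higher, against 3.14% and 3.76% of all genes. It was Abcg2, which had 3119 in homozygous HHR and 9915 in heterozygous HHR and was 3.18-fold lower.

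Regulators of fat synthesis had a median of -1.09 in involution, where 7 of 13 were at least 2-fold lower and 1 was higher, against 8.94% and 10.3% of all genes. These counts change with the setting. Akt1 fell under 2-fold with 3 alternatives and Stat5a with the spiked-in controls (-0.73), where Mlxipl passed 2-fold higher (1.17). Akt1, Stat5a and Mlxipl fall outside the naming rule and are named for this change alone. Insig1, which retains the sterol-sensing complex in the endoplasmic reticulum, was 11.2-fold lower and Srebf1, a transcription factor of lipogenic genes, was 5.33-fold lower. Elf5, a transcription factor of secretory differentiation, had 3420 in SDR involution and 13667.5 in SDR lactation. Pparg, a nuclear receptor that drives lipid storage genes, had 254.0 in homozygous HHR, 269.1 in heterozygous HHR, 257.1 in SDR involution and 546.7 in SDR lactation, so that SDR lactation stood alone, as it did for Gpam. Its differences fell under 2-fold with the pseudocount and with the spiked-in controls in all 3 comparisons with SDR lactation. In homozygous HHR 2 of 14 regulators were lower (2.72% of all genes) and in heterozygous HHR 3 of 14 (4.15%), with 0 higher in either. Thrsp, a lipogenic nuclear protein, was the lowest of them in both, at -1.27 in homozygous and -1.46 in heterozygous HHR.

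**Figure D4:**
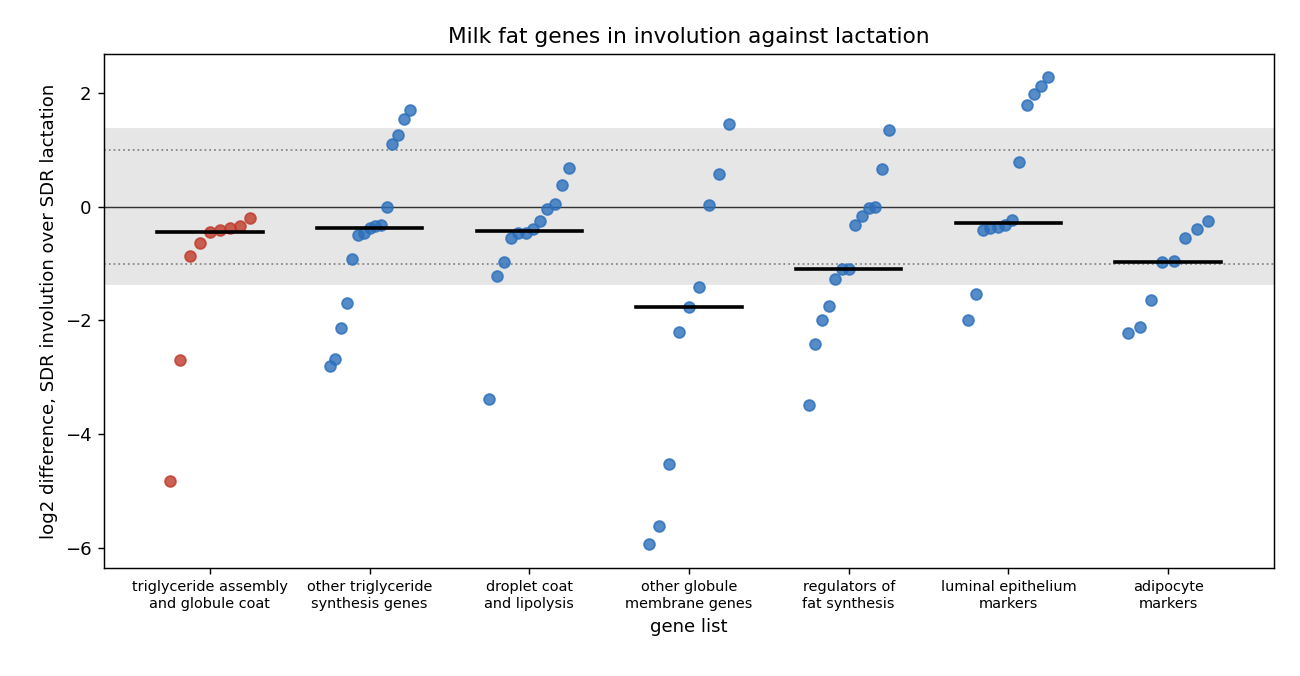
Log2 difference of SDR involution over SDR lactation for the measured genes of 7 lists, 1 point per gene, with black bars for the list medians, the 5th to 95th percentile of all measured genes in grey and 2-fold as dotted lines. The globule membrane list has the lowest median (-1.77) and the luminal epithelium markers hold 4 genes past 2-fold higher and 2 lower.

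Markers of cell types moved with involution as well. Of 12 luminal epithelium markers 4 were at least 2-fold higher (among them the keratins Krt8 and Krt19) and 2 lower (among them Elf5) in SDR involution than in SDR lactation, against 10.3% and 8.94% of all genes. Their summed signal was 256351 in homozygous HHR, 265515 in heterozygous HHR, 270261 in SDR involution and 267914 in SDR lactation. On the deposited scale, the near-equal sums of the SDR arrays join opposite changes. As deposited, Krt8 had 22880 in SDR involution and 5233 in SDR lactation, and Krt19 had 19472 and 4025. The brightest markers, Csn3 and Csn2, had 46227 and 43743 in SDR involution against 60152 and 54651 in SDR lactation. These lie near the highest signals of the 2 arrays, 47462 and 63449. Their log2 differences, -0.38 and -0.32, were smaller in size than that of the spiked-in controls (-0.54), so the direction for the caseins depends on the scaling. Of the adipocyte markers Plin1, Plin4, Cidec and Lipe also stand in the droplet list, and of the luminal ones Elf5 among the regulators. Of 9 adipocyte markers on the array 1, Lep, was at the floor in all 4 arrays. Of the 8 measured, 3 were lower in involution and 0 higher, beside the same shares, and the summed signal was 23228 in homozygous HHR, 20675 in heterozygous HHR, 9955 in SDR involution and 33376 in SDR lactation. Fabp4 was the largest single part of each sum, with 9885, 9507, 5137 and 23931 in the same order. Fabp4 and Aqp7 were lower in both HHR arrays than in SDR lactation, and the other measured adipocyte markers were higher. In homozygous HHR the median was 0.46, although 2 of 8 adipocyte markers were lower and 0 higher (2.72% and 3.77% of all genes). The part of adipocytes in the differences of Gpam, G0s2 and Pparg, which fat cells also use, was not tested.

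Summed signals of myoepithelium markers were 36222 in homozygous HHR, 36842 in heterozygous HHR, 27228 in SDR involution and 21109.8 in SDR lactation. Of the 7 measured, 3 were at least 2-fold higher and 1 lower in homozygous HHR (3.77% and 2.72% of all genes), with a median of 0.99, and 1 was higher and 1 lower in heterozygous HHR (4.58% and 4.15%), with a median of 0.69. In SDR involution 1 was higher and 1 lower (10.3% and 8.94% of all genes), with a median of 0.24. The summed signals of fibroblast markers were 66154, 42589, 53477 and 66954 in the same order. Of these markers, 0 of 7 were at least 2-fold different in homozygous HHR (6.5% of all genes) and 2 of 7 were lower in heterozygous HHR (4.15%). Macrophage markers summed to 6397, 4489.9, 7189 and 7793, with 1 of 8 lower in homozygous HHR and 3 of 8 in heterozygous HHR (2.72% and 4.15% of all genes). Endothelium markers summed to 5399, 4833, 5193 and 8161, and T cell markers, with Cd8a at the floor in all arrays, to 740.3, 746.3, 656.3 and 994.9. The endothelium sum joins opposite changes in involution, where 1 of 6 was at least 2-fold higher and 2 lower (10.3% and 8.94% of all genes). The median there was 0.09. In homozygous and heterozygous HHR 1 of 6 was lower (2.72% and 4.15%) and 0 higher, with medians of -0.42 and -0.73.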

How the data were processed

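Mammary gland RNA of each of 4 groups was labelled as biotinylated cRNA, per the labels' protocols, and hybridised to 1 Affymetrix array. The values deposited by the authors are a linear hybridisation intensity per probe set, the MAS5 signal, per the submitters' processing notes, which give no version. All arrays had been scaled by the authors to 1 level, since each had a mean of 500.0 once 2% of probe sets were trimmed at either end. MAS5 settings, calls of detection and flags for saturation were not used here.

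Of 31099 probe sets, 57 were controls, 20832 had 1 gene symbol in the platform annotation, 436 several and 9774 none, and only those with 1 were named. Gene identifiers were found in a RefSeq table of GRCr8 for 20764, and 0 symbols needed updating. With no probe set for Btn1a1, genes of like pattern were not sought. From each other list and comparison, at most 3 genes past 2-fold were named by size and at most 2 short of it by brightness, with exceptions stated beside them. The genes and lists were chosen with earlier results of these data known.

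No test was possible between single arrays, and their number limits precision. Steps used Python 3.11.15, pandas 2.3.3 and numpy 2.4.6 and were tested on simulated data. Alternatives were 2 scalings, 2 floors (25th and 55th percentile), the floor as a pseudocount, 2 choices of probe set and thresholds of 1.5-fold and 3-fold, and 1 more scaling was added after the data were seen.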

Additional observations from a re-analysis of the deposited data

How the results depend on the processing

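Of 36 differences of the 9 genes, 27 kept their sign in all 8 alternatives to the scaling, floor and probe set, and 3 of the 4 past 2-fold stayed past it (G0s2 and Muc1 in involution, G0s2 between the HHR arrays). Signs changed for Xdh and Dgat2 in homozygous HHR (Plin2 reached 0 there with quantile normalization), Plin2 in heterozygous HHR, and Xdh, Mfge8, Lpin1, Dgat1 and Dgat2 in involution. The fourth, Gpam in homozygous HHR against SDR lactation, ranged from -1.23 to -0.68, and the count of genes at least 2-fold lower there was 1 as deposited and 0 with the floor at the 55th percentile, with the floor as a pseudocount, scaled to the spiked-in controls and at 3-fold. In heterozygous HHR the count lower was 0 and became 1 (Gpam) with the mean of all probe sets. Between the HHR arrays it was 1 and became 0 at 3-fold. At 1.5-fold, 1 gene was higher and 2 lower in homozygous HHR (0 and 1 at 2-fold), 1 higher and 2 lower in heterozygous HHR (0 and 0), and 4 lower in involution (2). In involution the count lower was 3 with median centring and when probe sets were averaged, since Gpam passed 2-fold. Genes past 2-fold in all numbered 706 in homozygous HHR (458 to 1159 over these alternatives), 949 in heterozygous HHR (585 to 1445), 750 between the HHR arrays (478 to 1188) and 2114 in involution (1621 to 3553). The lowest counts came with the pseudocount and the highest with the 25th percentile floor or, in involution, the spiked-in controls. The share of calls that were higher was 58.1% in homozygous HHR and 54.5% between the HHR arrays, against 77.1% and 72.6% with the controls, and 53.4% in involution against 41.0% with median centring. No paired analysis was possible because each group has 1 array. Low signals limit Gpam, and very bright ones Xdh and Plin2.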
